A study of Mus musculus with 9 samples.

Results

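A set of 9 genes of mesothelium and of simple epithelium was examined in cell clones grown out of mouse pancreatic tumors. The genes were Msln, Upk3b, Lrrn4 and Wt1, which mark the mesothelium, the simple keratin genes Krt7, Krt8, Krt18 and Krt19, and Cdh1, which encodes the epithelial adhesion protein E-cadherin. They were chosen by symbol, and all 9 were among the 18049 genes of the deposited table. Bulk RNA-sequencing had been performed on 9 clones from pancreatic tumors of WTg mice, and the samples are labelled as fibroblasts. WTg mice (EL1-Luc/EL1-Tag x CAG-Mettl3) carry Mettl3 under the ubiquitous CAG promoter together with luciferase and the SV40 large T antigen, both under the acinar elastase I promoter. Each clone was a colony picked with a cloning cylinder after passage of minced tumor. No clone without the Mettl3 transgene was established, and the number and age of the donor mice are not given. A protocol field of the labels names NMS-P937, a PLK1 inhibitor, at 80 nM for 24 h, while the treatment field reads none, so the 9 clones were taken as untreated and as a single group.

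The mesothelium is the single cell layer that lines the peritoneum and covers the abdominal organs, the pancreas included. It arises from mesoderm, yet it forms a polarized sheet with keratin filaments, so its cells carry features of both epithelium and mesenchyme. Keratins are intermediate filament proteins that assemble only as pairs of a type II chain, such as Krt7 or Krt8, with a type I chain, such as Krt18 or Krt19. Simple keratins are the classical filaments of single-layered epithelia such as the pancreatic duct, and Cdh1 joins the cells of such layers.

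Values are normalized counts, which are reads multiplied by 1 scaling factor per library. Between 12198036 and 20453901 reads per library fell on genes, and 1 read was worth 1.26 to 2.19 normalized counts. A gene was taken as detected above the floor when it had more than 3 reads, or 3.79 to 6.56 normalized counts depending on the library. The floor covers counting error only. The column names begin with MET_EL in 1 library, Whe10 in 4 libraries and Whe3 in 4 libraries, and the meaning of these prefixes is not stated. Xist, the RNA of the inactive X chromosome, was at 29664 to 32912 normalized counts in the Whe10 libraries and at no more than 8.39 in the others. Ddx3y, a Y-linked gene, had 0 reads in the Whe10 libraries and was at 2376 to 2720 normalized counts in the others, so prefix and sex cannot be told apart. The 13 fibroblast markers summed to 354996 to 951027 normalized counts per library and the 12 macrophage markers to 554060 to 871124. The sums of fibroblast and of macrophage markers were thus both high in every library, whereas the label names fibroblasts alone. The largest genes in the sums were Fn1, at 201242 to 432514, and Lyz2, at 287615 to 577311. Of the 13 fibroblast markers 12, and of the 12 macrophage markers 12, were above the floor in every library, against 75% of all genes. The fibroblast markers Fap and Lum were at only 19.6 to 140 and 0 to 68.0. Epcam, a defining epithelial gene, had 0 reads in all 9 libraries.

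The mesothelial genes split the clones. Wt1 and Upk3b were highest in the 4 Whe10 libraries and in a single Whe3 library, Whe3_11A, and were low or without reads in the other 4 libraries. Msln and Lrrn4 were above the floor in Whe3_11A and in 3 of the 4 Whe10 libraries, with 2 reads each in Whe10_11A. The simple keratin pair Krt8 and Krt18 was nearly absent from all 9 clones. Krt7 and Krt19 were present at low levels that did not rise with the mesothelial genes or closely follow each other. Cdh1 was low in all clones but Whe3_7A. The plot of the members by library shows these patterns.

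**Figure D1:**
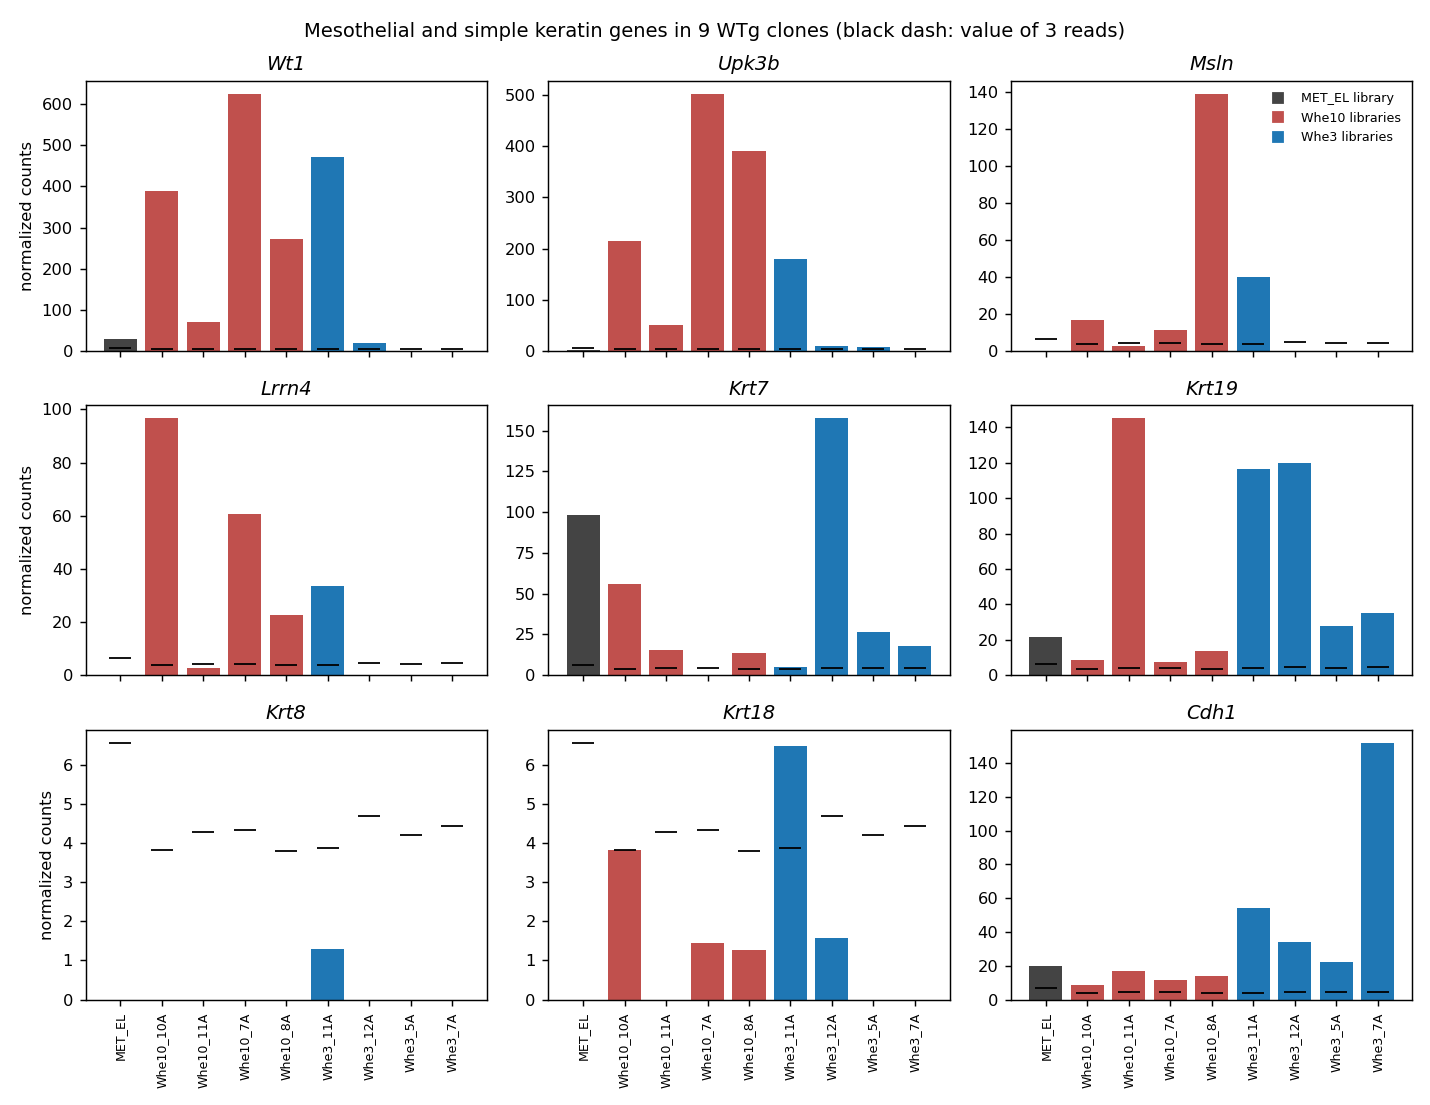
Normalized counts of the 9 member genes in each of the 9 WTg clones (1 bar per library, colored by the prefix of its column name), with a black dash at the value of 3 reads in that library. Wt1 and Upk3b are highest in Whe10_7A (625 and 502 normalized counts), Krt8 has a bar in 1 library only, and Cdh1 reaches 152 normalized counts in Whe3_7A.

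Wt1 (ENSMUSG00000016458, chr2:105126529-105173614, RefSeq GRCm38.p6) encodes a zinc finger transcription factor of the mesothelium, the gonad and the kidney. It was at 388, 71.2, 625 and 271 normalized counts in Whe10_10A, Whe10_11A, Whe10_7A and Whe10_8A. In the Whe3 libraries it was at 472 in Whe3_11A, at 18.7 in Whe3_12A and at 0 in Whe3_5A and Whe3_7A, and it was at 28.4 in MET_EL. Every Whe10 library was thus above every library but Whe3_11A. The mean over the clones was 208 ± 238 (SD, n = 9), so the spread exceeded the mean. The Whe10 libraries were at 339 ± 231 and the Whe3 libraries at 123 ± 233 (SD, n = 4 each), and they overlapped. The antisense transcript of the locus, Wt1os, was at 0 to 26.0 normalized counts, and its highest value was also in Whe10_7A.

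Upk3b (ENSMUSG00000042985, chr5:136038496-136044993) encodes a uroplakin-family membrane protein of the mesothelial surface. It was at 215, 51.3, 502 and 390 normalized counts in Whe10_10A, Whe10_11A, Whe10_7A and Whe10_8A, at 180 in Whe3_11A, at 9.37 in Whe3_12A, at 8.39 in Whe3_5A, at 2.19 in MET_EL and at 0 in Whe3_7A. The lowest Whe10 value lay above all of the Whe3 and MET_EL values except that of Whe3_11A. Among the Whe3 libraries, Whe3_11A was 19.2 times the next highest for Upk3b and 25.2 times for Wt1. The mean of Upk3b was 151 ± 187 (SD, n = 9), and the Whe10 and Whe3 libraries were at 289.6 ± 198 and 49.4 ± 87.0 (SD, n = 4 each).

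Msln (ENSMUSG00000063011, chr17:25748613-25754378) encodes mesothelin, a cell surface protein of mesothelium that pancreatic tumors often express. It was at 139 normalized counts in Whe10_8A, 40.1 in Whe3_11A, 16.5 in Whe10_10A, 11.6 in Whe10_7A and 2.85 in Whe10_11A, and it had 0 reads in the other 4 libraries. The value in Whe10_11A rests on 2 reads and is under the floor, so Msln was detected above the floor in 4 libraries. Its order among the clones was not that of Wt1 or Upk3b, which were highest in Whe10_7A. The ratio of Msln to Upk3b ran from 0.0231 in Whe10_7A, where Msln had 8 reads, to 0.356 in Whe10_8A.

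Lrrn4 (ENSMUSG00000043110, chr2:132866686-132894010) encodes a leucine-rich repeat membrane protein first studied in neurons and used as a mesothelial marker. It was at 96.7 normalized counts in Whe10_10A, 60.8 in Whe10_7A, 33.6 in Whe3_11A, 22.7 in Whe10_8A and 2.85 in Whe10_11A, the last again from 2 reads, and it had 0 reads elsewhere. Lrrn4 and Msln were therefore above the floor in the same 4 libraries. Their highest libraries differed, and the ratio of Lrrn4 to Upk3b ran from 0.0583 in Whe10_8A to 0.450 in Whe10_10A. In bulk RNA, fewer cells of a type and less RNA per cell cannot be told apart, so these levels do not say how many cells carried the transcripts.

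Since Upk3b and Lrrn4 varied together while the keratin pair stayed near 0, the 250 bases before the RefSeq start of these genes are shown 5′ to 3′ on the gene's strand (GRCm38.p6). The Upk3b window is chr5:136038246-136038495 on the plus strand and the Lrrn4 window chr2:132880863-132881112 on the minus strand. The Krt8 window is chr15:102004343-102004592 on the minus strand and the Krt18 window chr15:102027966-102028215 on the plus strand. The Lrrn4 window lies before a start inside the annotated span of the gene. A window was at hand for 5 of the 9 members, the fifth being Krt7. Capitals mark matches on either strand to the TEAD core GGAATG, the GATA core AGATAA or the WT1 site GCGGGGGCG, chosen as motifs of factors known in mesothelium.
Upk3b: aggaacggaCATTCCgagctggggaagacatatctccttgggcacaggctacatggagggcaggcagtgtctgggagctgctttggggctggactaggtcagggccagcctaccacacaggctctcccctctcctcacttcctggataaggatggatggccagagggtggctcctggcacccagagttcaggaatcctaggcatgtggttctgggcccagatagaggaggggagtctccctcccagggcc
Lrrn4: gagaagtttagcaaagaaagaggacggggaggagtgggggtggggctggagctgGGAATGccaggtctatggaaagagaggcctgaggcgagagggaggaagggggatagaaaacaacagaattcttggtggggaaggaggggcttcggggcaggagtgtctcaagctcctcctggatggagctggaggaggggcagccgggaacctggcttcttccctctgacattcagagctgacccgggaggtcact
Krt8: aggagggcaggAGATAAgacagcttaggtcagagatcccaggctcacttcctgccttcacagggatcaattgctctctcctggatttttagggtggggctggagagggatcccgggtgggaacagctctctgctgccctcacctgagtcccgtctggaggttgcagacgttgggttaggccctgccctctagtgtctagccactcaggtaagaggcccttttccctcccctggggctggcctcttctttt
Krt18: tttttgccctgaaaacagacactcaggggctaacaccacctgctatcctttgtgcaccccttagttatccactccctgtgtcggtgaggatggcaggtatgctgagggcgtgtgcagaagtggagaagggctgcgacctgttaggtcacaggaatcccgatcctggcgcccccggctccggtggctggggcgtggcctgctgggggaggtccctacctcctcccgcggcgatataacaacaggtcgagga
GGAATG was found in Upk3b, on the opposite strand from base -241, and in Lrrn4 from base -196, counted from the start. Of 32851 windows of this length, 12.6% held it. AGATAA was found only in Krt8, from base -239, and 9.99% of windows held it. GCGGGGGCG was found in none of the 5 windows and in 2.57% of all. No motif was found in Krt18 or Krt7. The motifs do not overlap, and a match describes the letters only.

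All 4 mesothelial members were above the other 4 libraries in each of the 4 Whe10 libraries and Whe3_11A, with the reserve that 2 reads carry this for Msln and Lrrn4 in Whe10_11A. Of the 14705 genes whose mean reached 10 normalized counts, 2.56% had this order. The order was read from the members themselves, so their own count is a description. The SD of log2(normalized counts + 1) over the clones was 3.62 for Wt1, 3.25 for Upk3b, 2.85 for Lrrn4 and 2.71 for Msln, against a median of 0.25 over the 14705 genes. They lay at the percentiles 99.9, 99.8, 99.6 and 99.4 of those genes. These percentiles are also only a description, since the members were chosen with earlier results of these data known. Msln and Lrrn4 had 0 reads in 4 libraries each. They reach a mean of 10 only through libraries in which they are high, which widens their SD. No mesothelial member had Whe10 and Whe3 libraries that did not overlap, because Whe3_11A lay inside the Whe10 range for all 4 genes.

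Whe3_11A carried 3.88 normalized counts of Xist, which is 0.0131% of the lowest Whe10 library, while its Wt1 was 663% of the lowest Whe10 library. Ddx3y was at 2605 normalized counts in it, within the range of the other Whe3 libraries and MET_EL.

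A list of 17 further mesothelial genes was examined, of which 16 were in the table and Calb2 was not listed there. Of the 13 whose mean reached 10 normalized counts, 4 had the order of the members, against 2.56% of the 14705 genes. This count is a description and no support, because the order was read from the members, the list was chosen with earlier results known, and a gene low in the other 4 libraries reaches that mean only through the 5 in which it is high. These 4 genes were Upk1b, Bnc1, Crb2 and Gata4, and they are named after their values were seen. Upk1b (ENSMUSG00000049436), a tetraspanin partner of uroplakins, was at 414, 215, 887 and 1035 normalized counts in Whe10_10A, Whe10_11A, Whe10_7A and Whe10_8A, at 440 in Whe3_11A and at 1.40 to 31.2 in the other 4 libraries. Bnc1 (ENSMUSG00000025105), a zinc finger gene of mesothelium and basal epithelium, was at 12.8 to 136 in the Whe10 libraries, at 47.9 in Whe3_11A and at 0 to 4.68 in the others. Crb2, a polarity gene, was at 41.3 to 148 in the Whe10 libraries, at 72.4 in Whe3_11A and at 2.19 to 5.60 in the others. Gata4, a transcription factor of visceral mesothelium and its mesenchyme, was at 15.7 to 126, 50.4 and 0 to 7.80 normalized counts in the same order. The profile of mesothelial genes shows both sets side by side.

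**Figure D2:**
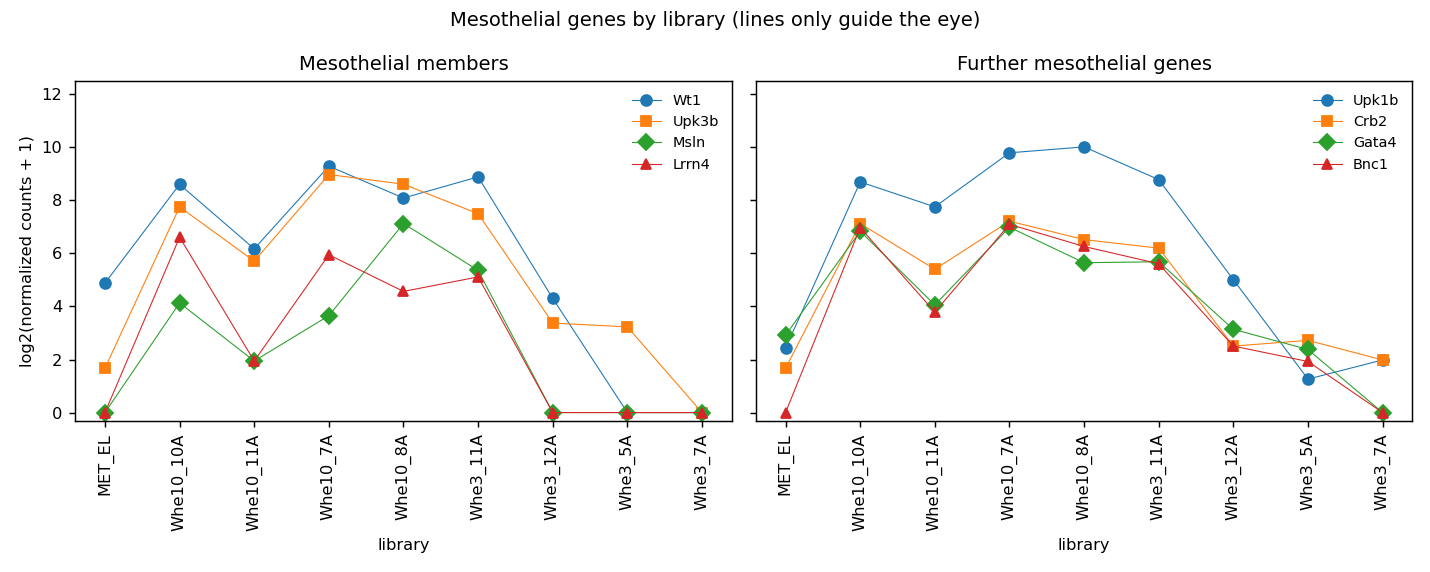
log2(normalized counts + 1) of the 4 mesothelial members (left) and of Upk1b, Crb2, Gata4 and Bnc1 (right) in the 9 libraries, with lines that only guide the eye. The 4 Whe10 libraries and Whe3_11A stand above the other 4 for each gene, and Whe10_11A is the lowest of these 5 for every gene drawn.

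Other genes of that list did not follow this order. Pdpn, a mucin-like surface protein of mesothelium and fibroblasts, was at 5243 ± 1400 normalized counts (SD, n = 9), with 2959 to 6707 over the clones. Efemp1, a matrix protein, was at 1999.8 ± 976 and Tbx18, a transcription factor of coelomic mesenchyme, at 480 ± 375. Aldh1a2, which makes retinoic acid, was at 425 ± 452, and its highest value of 1500 was in Whe10_8A, the library with the highest Msln. Of the 16 genes, 8 were above the floor in every library, against 75% of all 18049 genes, and Muc16 was above it in none. Muc16 encodes the mucin that carries the CA125 antigen and binds mesothelin.

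The likeness of other genes to each member was measured as Pearson's r of log2(normalized counts + 1) over the 9 clones, among the 14705 genes. It is a description without a test, and for the mesothelial members it rests on libraries that are either high or low. Closest to Wt1 were Shroom2 (r = 0.987), Fam78b (r = 0.986) and Cxadr (r = 0.970), the last encoding a junctional adhesion protein. Closest to Upk3b were Vat1l (r = 0.986), Bnc1 (r = 0.980) and Sema4f (r = 0.979). Closest to Lrrn4 were Tmem108 (r = 0.978), Cadm2 (r = 0.972) and Sytl1 (r = 0.971), with the polarity gene Crb2 at rank 5. Closest to Msln were Sema3d (r = 0.959), Fam174b (r = 0.956) and Lrp2 (r = 0.950), which encodes the endocytic receptor megalin. Among 14704 genes ranked by likeness to Upk3b, Lrrn4 was at rank 47, Wt1 at rank 101 and Msln at rank 110. The other members ran the opposite way, with r to Upk3b of -0.560 for Krt7, -0.304 for Krt19 and -0.648 for Cdh1. Their r to Wt1 was -0.406, -0.218 and -0.580 in the same order.

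Krt8 (ENSMUSG00000049382, chr15:101996711-102004342) and Krt18 (ENSMUSG00000023043, chr15:102028216-102032026) encode the type II and type I chains of the first keratin filament of the embryo and of most simple epithelia, mesothelium included. Krt8 had 1 read in all 9 libraries together, in Whe3_11A, and was above the floor in none. Krt18 had 11 reads in all, with 5 in Whe3_11A, 3 in Whe10_10A, 1 each in Whe10_7A, Whe10_8A and Whe3_12A and 0 in the other 4 libraries. It was above the floor only in Whe3_11A, at 6.47 normalized counts. RefSeq lists a pseudogene of Krt8, Krt8-ps, and how reads shared with such a copy were counted is not stated. The relation of Krt8 to Krt18, the only relation between members that was tested, had r = 0.656 and rho = 0.572 over 9 clones (exact two-sided permutation tests, p = 0.11 for each). With 1 read of Krt8 the smallest p the pairings can give is 0.11. After centring within Whe10 and within Whe3, r was 0.735 (exact permutation test, p = 0.036, n = 8) and rho was 0.459 (exact permutation test, p = 0.24). Both r and rho rest on that single read. The pairings ran across the prefixes, between which centred values are not exchangeable, so no conclusion is drawn from this p. Without Whe3_11A, Krt8 is constant and no correlation exists.

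Krt7 (ENSMUSG00000023039, chr15:101412403-101427806), the type II keratin of ducts and mesothelium, was at 158 normalized counts in Whe3_12A, 98.5 in MET_EL, 56.0 in Whe10_10A, 26.6 in Whe3_5A, 17.7 in Whe3_7A, 15.7 in Whe10_11A, 13.9 in Whe10_8A, 5.17 in Whe3_11A and 0 in Whe10_7A. It was thus lowest in the library with the highest Wt1 and Upk3b. Krt7 was above the floor in 8 libraries, and the Whe10 and Whe3 libraries overlapped. Its mean was 43.5 ± 52.6 (SD, n = 9). The genes closest to it were Pkd1 (r = 0.967), which encodes polycystin 1, Klhdc8b (r = 0.938) and Tns2 (r = 0.931).

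Krt19 (ENSMUSG00000020911, chr11:100140810-100145926), a type I keratin of ducts and mesothelium that lacks the usual tail, was at 145 normalized counts in Whe10_11A, 120 in Whe3_12A, 116 in Whe3_11A, 35.4 in Whe3_7A, 28.0 in Whe3_5A, 21.9 in MET_EL, 13.9 in Whe10_8A, 8.91 in Whe10_10A and 7.23 in Whe10_7A. It was above the floor in all 9 libraries, and 3 libraries stood apart at over 100 normalized counts. The ratio of Krt19 to Krt7 ran from 0.159 in Whe10_10A to 22.5 in Whe3_11A, so the RNAs of these genes were not in a fixed proportion. These extremes rest on 7 reads of Krt19 in Whe10_10A and 4 reads of Krt7 in Whe3_11A. Other keratins and the protein chains were not part of this ratio. In likeness to Krt7, Krt19 was at rank 4516 of 14704 genes (r = 0.255, rho = 0.217, n = 9). The genes closest to Krt19 were Lurap1l (r = 0.955), Cdr2l (r = 0.927) and Rpl13 (r = 0.924).

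Of the 9 other keratin genes in the table, 2 were above the floor in every library, against 75% of all 18049 genes. Krt80, a type II keratin with a wide epithelial distribution, was at 246 ± 103 normalized counts (SD, n = 9), from 107 in Whe10_7A to 423 in Whe3_12A. Krt10, a type I keratin of the suprabasal epidermis, was at 32.8 ± 9.90 and varied less, from 17.7 to 47.0. Krt20, a keratin of gut and urothelium, was at 30.6 in MET_EL and 24.6 in Whe3_11A, and at 0 to 8.68 in the other 7. Krt23 reached 14.5 in Whe10_7A and was above the floor in 2 libraries. Krt15, Krt13, Krt17 and Krt9 were above the floor in no library. Levels of different genes were not compared with each other, because exonic lengths were not at hand.

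**Figure D3:**
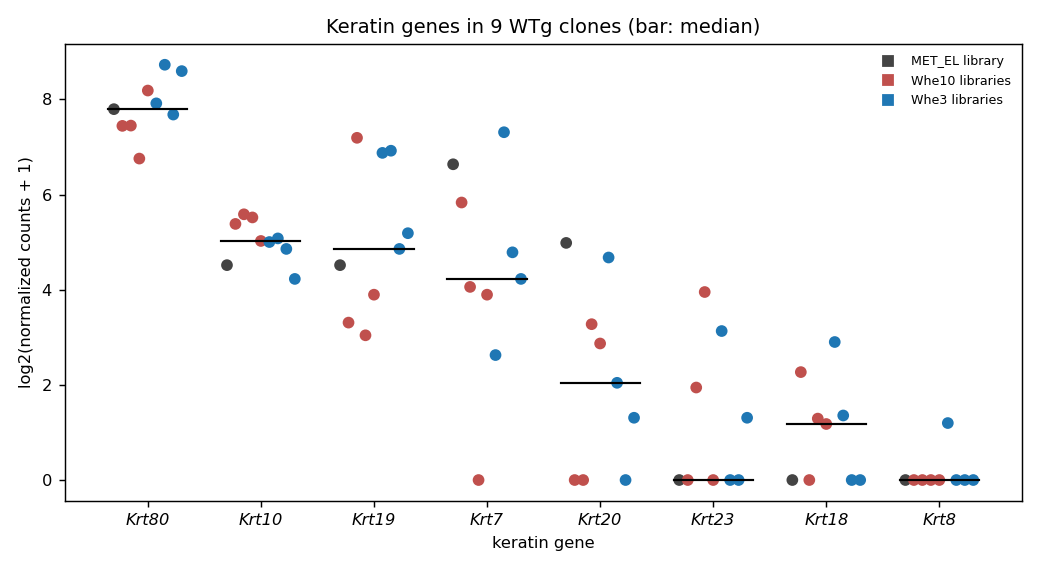
log2(normalized counts + 1) of 8 keratin genes in the 9 clones, each point a library colored by its prefix and each bar the median. Krt80 and Krt10 are narrow and above 0 in all clones, Krt19 and Krt7 are spread out, and Krt18 and Krt8 lie at or near 0.

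Cdh1 (ENSMUSG00000000303, chr8:106603350-106670247) was at 152 normalized counts in Whe3_7A, 54.3 in Whe3_11A, 34.3 in Whe3_12A, 22.4 in Whe3_5A, 19.7 in MET_EL, 17.1 in Whe10_11A, 13.9 in Whe10_8A, 11.6 in Whe10_7A and 8.91 in Whe10_10A. It was above the floor in every library. All 4 Whe3 libraries were above all 4 Whe10 libraries, at 65.8 ± 59.0 against 12.9 ± 3.47 (SD, n = 4 each), and Cdh1 was the only member, of the 7 whose mean reached 10 normalized counts, whose prefixes did not overlap. Of the 14705 genes, 10.3% did not overlap in 1 direction or the other, so a single member is near the background. Whe3_7A, the library with the most Cdh1, had 0 reads of Wt1, Upk3b, Msln and Lrrn4. The genes closest to Cdh1 were Qpctl (r = 0.951), Bst1 (r = 0.948) and Capg (r = 0.941), the last encoding an actin-capping protein abundant in macrophages.

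Of 18 epithelial and duct genes, 9 were in the table. Sox9, a transcription factor of duct and cartilage, was at 130 ± 44.8 normalized counts (SD, n = 9), the protease inhibitor Spint1 at 115 ± 68.1, the protease St14 at 96.9 ± 41.7 and the splicing factor Esrp2 at 34.9 ± 17.1. These 4 genes and Muc1 were above the floor in every library, against 75% of all 18049 genes. Epcam, Cftr and Elf3 were above it in none. The tight junction gene Cldn3 was above the floor only in Whe3_7A, at 11.8, where Cdh1 was also highest. Of the 5 whose mean reached 10 normalized counts, 0 had the order of the mesothelial members. Since only 2.56% of the 14705 genes had it, this count is near the background.

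The partners of cadherins and filaments are given each at its own level, with no comparison between genes. All 13 such genes were in the table and 9 were above the floor in every library, against the 75% of all genes. The cytolinker Plec was at 17487 ± 4649 normalized counts (SD, n = 9), the catenins Ctnnb1 at 13764 ± 750, Ctnnd1 at 10629 ± 2178 and Ctnna1 at 7655 ± 510, while the desmosomal gene Pkp1 was above the floor in 2 libraries. Ctnna1 and Ctnnb1 varied little between clones, with SDs of 0.0952 and 0.0793 on the log2 scale. Pkp1 reached 38.2 in Whe10_10A. Cdh2, the mesenchymal N-cadherin, was at 1235 ± 460. The desmosomal plaque gene Dsp was low, at 2.19 to 20.2, and with it Cdh2 is named after its values were seen.

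All 6 transcription factors of epithelial-mesenchymal transition, which repress Cdh1 in other systems, were above the floor in every library. So were 75% of all 18049 genes. Zeb2 was at 8801 ± 1164 normalized counts (SD, n = 9), Zeb1 at 1391 ± 412, Snai1 at 674 ± 160 and Snai2 at 470 ± 210. Snai2 and, named after its values were seen, Twist1 were higher in all 4 Whe3 libraries than in all 4 Whe10 libraries, as Cdh1 was. Zeb2 separated the other way, at 9623 to 10228 in the Whe10 and 7779 to 8654 in the Whe3 libraries. These 3 of 6 genes stand beside the 10.3% of all genes whose prefixes did not overlap, and no test was made.

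Other cell types' markers were summed beside the members. The sum of the 4 mesothelial members was 128 to 1200 normalized counts in the Whe10 libraries, 726 in Whe3_11A and 0 to 30.6 in the other 4. The fibroblast list summed to 354996 in Whe10_7A, its lowest library, where the mesothelial sum was highest. It summed to 354996 to 581854 in the Whe10 and 497626 to 951027 in the Whe3 libraries, which overlap. The macrophage list summed to 697519 to 800048 in the Whe10 and 554060 to 871124 in the Whe3 libraries. The sum of the 6 acinar genes was highest in Whe3_5A, at 2415, where the mesothelial sum was 8.39. The acinar gene Cela1 was at 288 there and at 293 in Whe10_10A, its highest library. The 4 endothelial genes summed to 156 to 429, with the highest sum in Whe3_11A, and Epcam was at 0 throughout. The part of these cell types in the members' values was not tested.

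**Figure D4:**
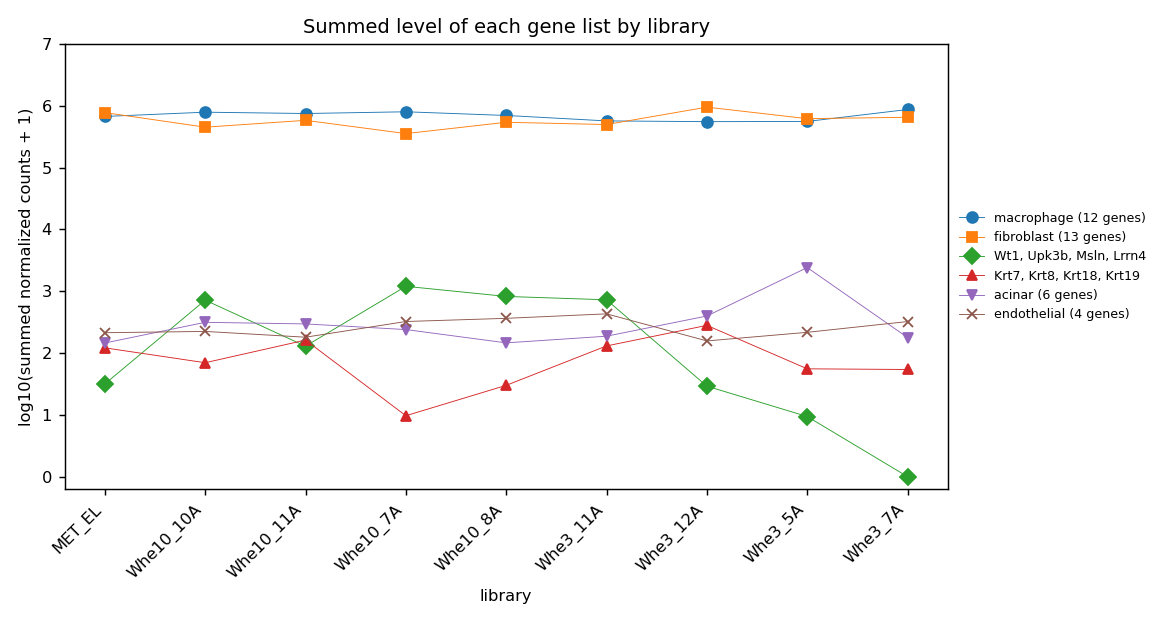
Summed normalized counts of each gene list by library, drawn as log10(sum + 1), for macrophage, fibroblast, acinar and endothelial lists and for the mesothelial and keratin members. The macrophage and fibroblast sums stay between 354996 and 951027 in all libraries, while the mesothelial sum runs from 0 in Whe3_7A to 1200 in Whe10_7A.

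Mettl3, the gene carried by the CAG transgene, encodes an m6A RNA methyltransferase. It stood at 2184 normalized counts in MET_EL and at 468 to 621 in the other 8 libraries. Reads of the transgene and of the mouse's own Mettl3 were not told apart in these values. Whether the members followed Mettl3 was tested with limma over the genes whose mean reached 1 normalized count, and 2.46% of these 16961 genes passed an adjusted p of 0.05 for a slope on log2 Mettl3. With a single library at high Mettl3, this fit in effect set MET_EL against the other 8, so Mettl3 cannot be told apart from anything else particular to that library. Of the 8 members tested, 0 passed, and Krt8 was under the filter. At an unadjusted p under 0.05 the count of members was also 0. With the prefix as a term it was 1, Msln, with a slope of -18.4 and a standard error of 6.54 (unadjusted p = 0.024, adjusted p = 1 by limma). MET_EL is the only library of its prefix, so it has no part in that slope. Mettl3 was at only 515 to 621 within Whe10 and 468 to 502 within Whe3. In the fit without the prefix, Upk3b had a slope of -1.50 with a standard error of 1.44 (adjusted p = 0.67 from limma). Wt1 there had a slope of 0.07 with a standard error of 1.69 (adjusted p = 0.99). Krt7 had a slope of 0.94 with a standard error of 0.99 (adjusted p = 0.70) and Cdh1 a slope of -0.36 with a standard error of 0.57 (adjusted p = 0.80). Of the further mesothelial genes, 0 of 16 passed, of the epithelial genes 0 of 6, of the other keratins 0 of 5, of the junction and filament partners 0 of 13 and of the 6 transcription factors 0. Each standard error of a mesothelial member exceeded 1 on the log2 scale, so a slope of this size was not detectable. Without MET_EL the slope of Upk3b was 8.17 with a standard error of 6.45 and that of Krt7 was -5.80 with a standard error of 4.42, opposite in sign to the slopes over 9 clones. The slope of Wt1 was then 10.2 with a standard error of 7.79 and that of Cdh1 -4.65 with a standard error of 2.50. In that fit 0 of all genes passed by limma, against 1774 at an unadjusted p under 0.05.

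**Figure D5:**
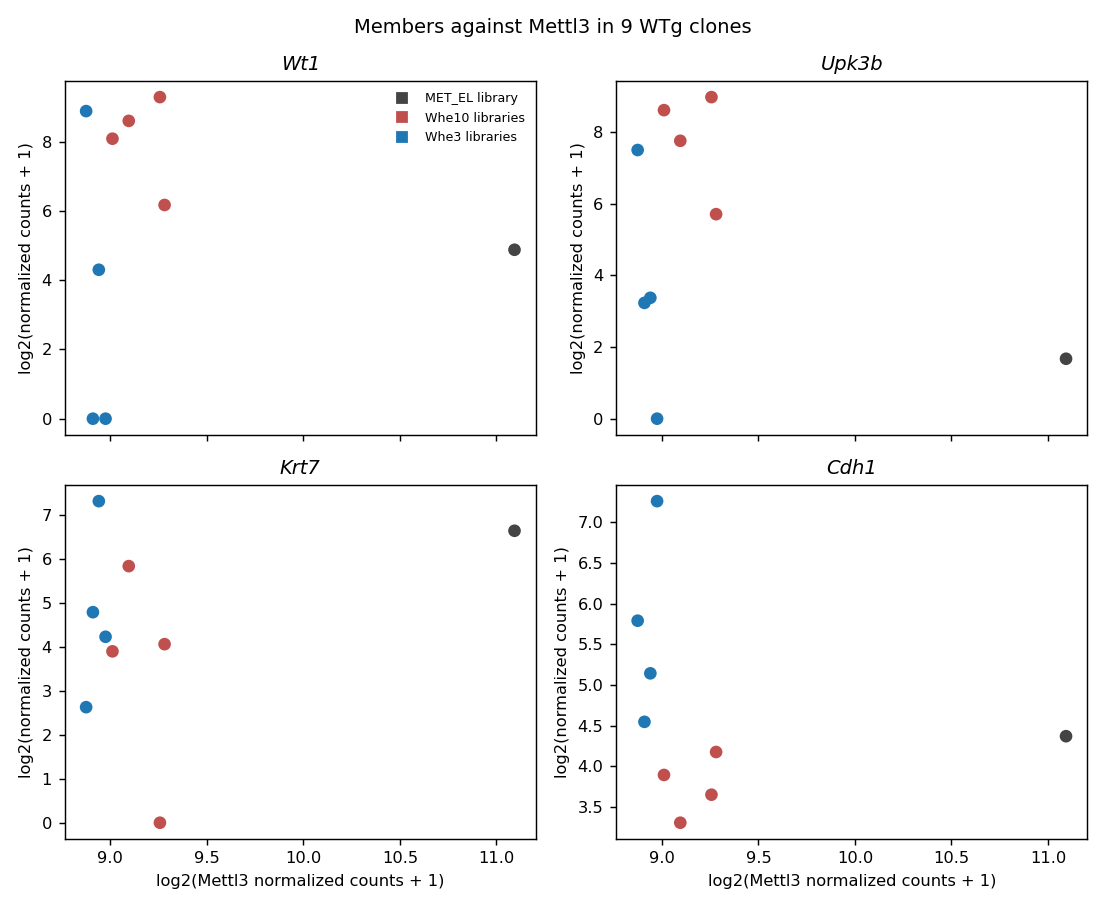
log2(normalized counts + 1) of Wt1, Upk3b, Krt7 and Cdh1 against that of Mettl3 in the 9 clones, each point a library colored by its prefix. The MET_EL library lies alone at the right with 2184 normalized counts of Mettl3, and the other 8 libraries span the range of each member at a nearly constant Mettl3 of 468 to 621.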

How the data were processed

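RNA-sequencing values of 9 WTg clones were analysed. The authors deposited log2 values for 18049 genes, made by scaling each library by 1 factor and adding an offset of 4. The submitters' processing notes name FastQC 0.11.9, STAR 2.7.10, RSEM 1.3.3 and the build GRCm38, with no role given, and the scaling software is not given in the sources used here. The kit was stranded. The table holds 6 columns of fibroblast libraries from other studies, which were not used here. The offset was removed to give normalized counts. Division by the value of 1 read gave whole reads for 100% of nonzero values under 1000 reads, within 0.05 of a read. No 2 libraries repeated each other (smallest chi-square per degree of freedom 24.1). Of the identifiers, 17975 matched the gene names at hand.

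Column names match no single sample title, so the libraries were replicates of 1 group, and where clones share a mouse is unknown, so p-values measure only the spread between these libraries. Levels are means with SD, without a test. Association with log2 Mettl3 was fitted with limma 3.58.1 (lmFit, eBayes with a trend) in R 4.3.3 on log2(normalized counts + 1), with Benjamini-Hochberg adjustment over all genes tested, and was tested on simulated data. Exact permutation tests ran over all 362880 pairings of 9 libraries, or all 40320 pairings of 8 libraries, in Python 3.11.15. Promoter windows and coordinates come from RefSeq GRCm38.p6.

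The members and lists were chosen with earlier results of these data known. Named genes are all members, the 3 genes most like each member among genes whose mean reached 10 normalized counts, and, from each further list, the 4 genes with the highest mean and the gene with the largest ratio of gap to range. Alternatives were rescaling to the upper quartile or the total, pseudocounts of 0.1, filters at no minimum or at a mean of 50, no trend, voom, the prefix as a term, and leaving out libraries. The deposited log2 values and a floor of 10 reads were added after seeing the data.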

Additional observations from a re-analysis of the deposited data

Results flagged for a closer look

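The gap between the highest or lowest library and its nearest neighbor, divided by the whole range over the 9 libraries, was compared with Dixon's 95% limit for 32 named genes above the floor. It passed the limit for 8 of them. Chance flags about 1 in 20 groups of normally distributed values, but the ratio was taken on normalized counts without a log. That share also does not apply to this count as a whole, since 1 gene of each further list was named for having the largest such ratio. The flags are therefore a description. Among the members, Msln stood out in Whe10_8A with a ratio of gap to range of 0.711, at 139 normalized counts against 40.1 in the next library. Cdh1 stood out in Whe3_7A with a ratio of 0.683, at 152 against 54.3. In Whe3_7A the claudin genes Cldn15 and Cldn3 were also far above the others, with ratios of 0.650 and 0.645, and Cldn3 was at only 11.8 normalized counts there. In Whe10_8A the retinoic acid gene Aldh1a2 stood out with 0.564. Tbx18 was high in Whe3_11A with 0.538, Pkp1 in Whe10_10A with 0.673 and Mettl3 in MET_EL with 0.911. No cause was tested for any of them.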

How the results depend on the processing

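No paired analysis was possible because the 9 libraries form 1 group without shared replicate numbers. The mean level of each of the 9 members moved by less than its SD under upper quartile scaling, total scaling and without the library with the fewest genes detected. Each SD exceeded its mean and the largest scaling factor was 0.0661 on the log2 scale, so this comparison could not fail. It is no support for the levels. Without the library with the fewest genes detected, the mean of Wt1 went from 208 to 231 and that of Krt7 from 43.5 to 36.6. With a floor of 10 reads, chosen after seeing the data, Krt18 was above it in 0 libraries in place of 1, Krt19 and Cdh1 in 6 each in place of 9, Upk3b in 5 and Krt7 in 7, and Msln in 3 while Lrrn4 stayed at 4. The number of genes associated with log2 Mettl3, 417 as reported (55 rose, 362 fell), was 656 with a pseudocount of 0.1, 238 with a filter at a mean of 50, 72 with voom on the recovered reads (44 rose, 28 fell, the opposite balance), 0 without the library with the highest Mettl3 and 0 with the prefix as a term (465 at an unadjusted p under 0.05). No member passed under any of these settings, with adjusted p from 0.53 to 1 by limma. The sign of members' slopes was not stable. Without the library with the highest Mettl3, the slope of Msln was 1.97, of Upk3b 8.17, of Lrrn4 6.42 and of Krt7 -5.80. With the prefix as a term, it was -9.49 for Wt1, -6.46 for Krt7, 5.34 for Krt19 and 2.36 for Cdh1, and with the deposited log2 values it was -0.22 for Wt1. The cause was not tested. The correlation of Krt8 with Krt18 was 0.735 after centring within prefixes and 0.513 to 0.662 under its other alternatives. After centring, p = 0.036 (exact permutation test) came from pairings across the prefixes and from a single read of Krt8. No conclusion is drawn from it. Leaving out the 2 libraries farthest from the median of Krt8 left no variation and gave no value. At these depths, levels of 3 reads or fewer, such as Krt8 in all clones, cannot be told from 0.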
